A study of Homo sapiens with 12 samples.

Results

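The keratin genes are the 55 protein-coding genes on chromosomes 12 and 17 whose symbol is KRT followed by a number and an optional letter in the RefSeq annotation of GRCh38, out of 20037 protein-coding genes on the autosomes, X and Y. Keratin-associated protein genes (KRTAP) are not among them. Accessible sites were taken from the deposited peak list, in which each line gives an interval and a summit, the position of its strongest signal. A summit belonged to a keratin gene when it lay inside the gene or within 5 kb of it. By this rule 50 of the 188019 summits, in 44 intervals, belonged to a keratin gene.

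Open chromatin was mapped by ATAC-seq, which cuts accessible DNA and tags it with a transposase. HT1080 cells, an established human fibrosarcoma line that is commonly used as a mesenchymal tumour model, were cultured for 48 h in rat tail type I collagen gels at 0.3 mg/mL (low), 1 mg/mL (medium) or 1.7 mg/mL (high), with 4 libraries at each concentration. All 12 libraries received 20 µM GM6001, a broad inhibitor of matrix metalloproteinases, so there was no group without it. The deposited list was made over the whole series and names no library and no concentration. None of the values below therefore compares concentrations, none has a replicate error, and the depth of each library is unknown.

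Keratins are the intermediate filament proteins of epithelial cells. Each filament pairs an acidic type I keratin with a basic type II keratin, and each kind of epithelium uses its own pairs. KRT8 and KRT18 form the pair of simple, single-layered epithelia, KRT5 and KRT14 that of the basal epidermis, KRT1 and KRT10 that of the suprabasal epidermis, and a separate set hardens the hair shaft. Mesenchymal cells build their filaments from vimentin instead. The type II genes, with KRT18, form a cluster on chromosome 12, and the other type I genes form a cluster on chromosome 17.

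The members were read in 6 lists. There were 5 simple epithelial keratins, 13 epidermal keratins, 5 keratins of the cornea and stratified mucosa, 9 of the inner root sheath and companion layer of the hair follicle, 17 hair keratins and 6 others. Of 2 measures at each summit, the first was the enrichment, the authors' fold over the local background. The second was the pileup, the number of fragments that overlap the summit, which was recovered from the enrichment and the p-value. A local background above the genome-wide value of 20.3 fragments lowers the enrichment at a given pileup, so both are given.

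The sequences just before the start sites are shown first, because none of the keratins with a listed start site had a summit near it. RefSeq start sites (GRCh38.p14) were at hand for 34 of the 55 keratins. Each line below holds the 250 bases before a start site, 5′ to 3′ on the minus strand, with matches to the searched motifs in capitals. KRT8 is a simple keratin with summits on both sides of the start site, KRT20 a simple keratin without a summit, KRT10 an epidermal keratin and KRT34 the hair keratin with the highest enrichment of the family.
KRT8, chr12:52926470-52926719: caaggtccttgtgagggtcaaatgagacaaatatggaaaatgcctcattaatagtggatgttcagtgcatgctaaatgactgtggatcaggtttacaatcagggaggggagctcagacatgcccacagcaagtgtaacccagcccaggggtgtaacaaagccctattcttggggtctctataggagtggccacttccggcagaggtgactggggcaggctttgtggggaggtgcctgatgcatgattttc
KRT20, chr17:40885243-40885492: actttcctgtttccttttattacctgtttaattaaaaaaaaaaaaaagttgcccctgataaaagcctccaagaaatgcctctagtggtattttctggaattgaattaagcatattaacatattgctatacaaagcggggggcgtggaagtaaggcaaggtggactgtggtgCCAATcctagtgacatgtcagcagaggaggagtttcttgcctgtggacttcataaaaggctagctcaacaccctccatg
KRT10, chr17:40822615-40822864: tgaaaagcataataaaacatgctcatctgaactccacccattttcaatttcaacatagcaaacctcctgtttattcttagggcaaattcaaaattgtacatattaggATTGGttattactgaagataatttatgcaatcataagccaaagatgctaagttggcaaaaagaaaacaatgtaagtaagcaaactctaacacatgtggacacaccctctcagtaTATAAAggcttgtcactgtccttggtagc
KRT34, chr17:41382307-41382556: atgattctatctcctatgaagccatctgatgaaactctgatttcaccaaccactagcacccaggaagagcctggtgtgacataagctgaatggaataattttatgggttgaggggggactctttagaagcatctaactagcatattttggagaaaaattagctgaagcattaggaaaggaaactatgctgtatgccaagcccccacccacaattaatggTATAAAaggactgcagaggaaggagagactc

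None of the 34 keratins with a listed start site had a summit within 1 kb of it, while 67.7% of the 15843 protein-coding genes in the same table did. The nearest summit to a listed keratin start site was 1007 bp away, at KRT8, and the median distance was 11095 bp, against 153 bp over all protein-coding genes in the table. At KRT8 that summit, at 52927476, lay upstream of the start site. KRT79 followed with a summit 1854 bp upstream, then KRT34 with one 2053 bp downstream and KRT3 with one 2090 bp upstream. KRT25, of the inner root sheath, had its nearest summit 63692 bp away. No deposited interval overlapped any of the 38 keratin start-site windows, whereas 57.7% of the 22199 windows of protein-coding genes were overlapped. The 38 windows belong to the 34 genes, since KRT40 and KRT85 have several starts. The table holds 1 start site for KRT8, and other starts of that gene were not analysed here. The listed starts of KRT8 and KRT73 lie inside these genes, which are on the minus strand. At their high-coordinate, upstream ends there was a summit, 53 bp from that of KRT8 and within 1 kb of that of KRT73. The KRT8 summit had an enrichment of 12.7 at 763 fragments, that of KRT73 1.78 at 37. The lack of summits therefore holds for the listed starts only.

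The 34 genes are not a fair draw from the family. Of these, 14 (41.2%) had a summit inside or within 5 kb, whereas 17 of the 21 keratins without a listed start (81.0%) had one. The 21 include KRT7, KRT18, KRT19, KRT14, KRT16, KRT17 and KRT80. For these only the ends of the gene could be used. Over all 55 keratins, 11 (20%) had a summit within 1 kb of either end, against 65.7% of all protein-coding genes. Of those 11, 4 had a listed start and 7 did not.

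The 38 listed start-site windows (250 bases before to 50 after each start) of the keratins were poor in G and C. Of these windows, 18 were of hair keratins, 8 of inner root sheath and companion layer keratins and 2 of simple keratins. KRT7, KRT18, KRT19 and KRT80 had none. The values here and for the motifs thus describe mostly keratins of the hair and its follicle. Their median GC content was 45.7%, with a range of 30% to 67.3%, and the median window held 2 CpG dinucleotides, with at most 8. Protein-coding windows with a summit within 1 kb had a median GC content of 65.7% and 26 CpG. Those without a summit had 53.3% and 6 CpG. Both keratin medians were thus below those of either set, and their highest CpG number was under the median of the windows with a summit.

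The motifs below were searched on both strands. The TATA box, TATAAA, occurred in 21 of the 38 keratin windows (55.3%), in 9.47% of protein-coding windows and in 11.5% of all 35116 windows. In 16 keratin windows (42.1%) it lay on the gene's own strand and began between 27 and 31 bases before the start site. Searched 20 to 35 bases before the start, it was there in 3.00% of protein-coding windows. The GC box, GGGCGG, was found in 6 keratin windows (15.8%), compared with 56.3% of protein-coding windows and 45.0% of all windows. The CCAAT box, CCAAT, was in 47.4% of keratin windows, 34.7% of protein-coding windows and 34.6% of all windows. The motif of AP-2, GCCNNNGGC, was in 13.2%, 27.3% and 23.2%, and that of AP-1, TGANTCA, in 0%, 6.15% and 7.71%. Matches of different motifs did not overlap in any keratin window, and 7 windows held none of them, the printed KRT8 window among these. No keratin window had a summit within 1 kb of its start. Among the protein-coding windows without one, the TATA box was in 16.7%, the GC box in 32.9% and the CCAAT box in 34.0%. The AP-2 motif was in 18.3% of them and the AP-1 motif in 8.03%. A match is a description of letters and was not tested as a binding site.

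**Figure D1:**
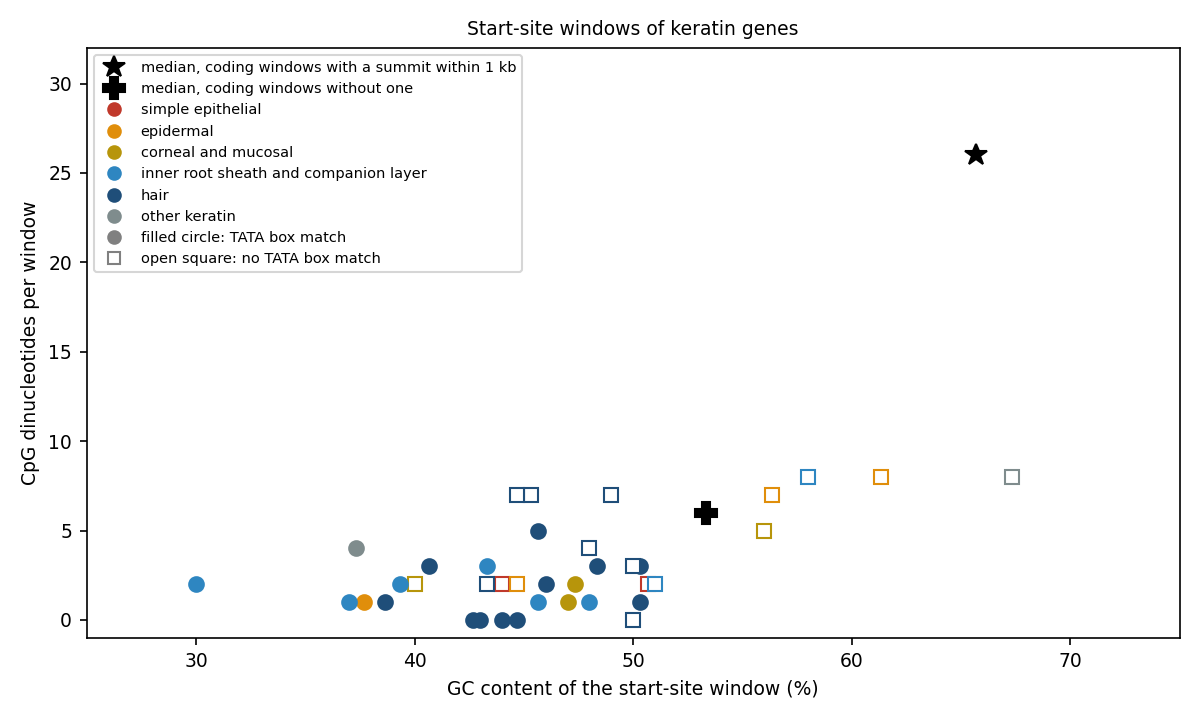
GC content (x axis, percent) and number of CpG dinucleotides (y axis) in each of the 38 start-site windows of keratin genes, coloured by list; filled circles hold a TATA box match and open squares hold none (some points overlap). The star and the plus mark the medians of protein-coding windows with (65.7%, 26 CpG) and without (53.3%, 6 CpG) a summit within 1 kb; every keratin window has at most 8 CpG.

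With the window of 5 kb, 31 of the 55 keratins (56.4%) had at least 1 summit, compared with 87.1% of all protein-coding genes, 86.6% of those on chromosome 12 and 90.2% of those on chromosome 17. The count was 13 (23.6%) when the summit had to lie inside the gene, where all protein-coding genes gave 66.1%. Keratin genes are short, with a median length of 6433 bp against 24115 bp. Protein-coding genes within the middle range of keratin lengths had a summit within 5 kb in 80.0% and inside in 43.9%. The keratins themselves were not restricted to that range, and the part of gene length in the difference was not tested. Genes are not replicates, and no test was made of these shares.

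By list, the share with a summit was 4 of 5 simple epithelial keratins (80%), 7 of 13 epidermal (53.8%), 2 of 5 corneal and mucosal (40%), 3 of 9 inner root sheath and companion layer (33.3%), 11 of 17 hair (64.7%) and 4 of 6 others (66.7%). All these shares were below the 87.1% of protein-coding genes, and the simple keratins came nearest to it. In the simple list only KRT20 was without a summit. Its share was also that of protein-coding genes in the middle range of keratin lengths (80.0%), so this count does not set the simple list apart. Inside the gene the counts were 3 of 5 simple, 2 of 13 epidermal and 4 of 17 hair keratins. Type II keratins had a summit more often than type I keratins, with 18 of 26 (69.2%) and 13 of 29 (44.8%). Their median length was 9178.5 bp against 5743 bp, and the part of length was not tested. Among those with a summit, the median highest enrichment was lower in type II, 5.50 against 10.4 in type I. The hair count depended most on weak summits. With summits of a −log10 q of at least 10 it was 6 of 17, against 4 of 5 simple and 5 of 13 epidermal keratins and 82.4% of protein-coding genes.

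**Figure D2:**
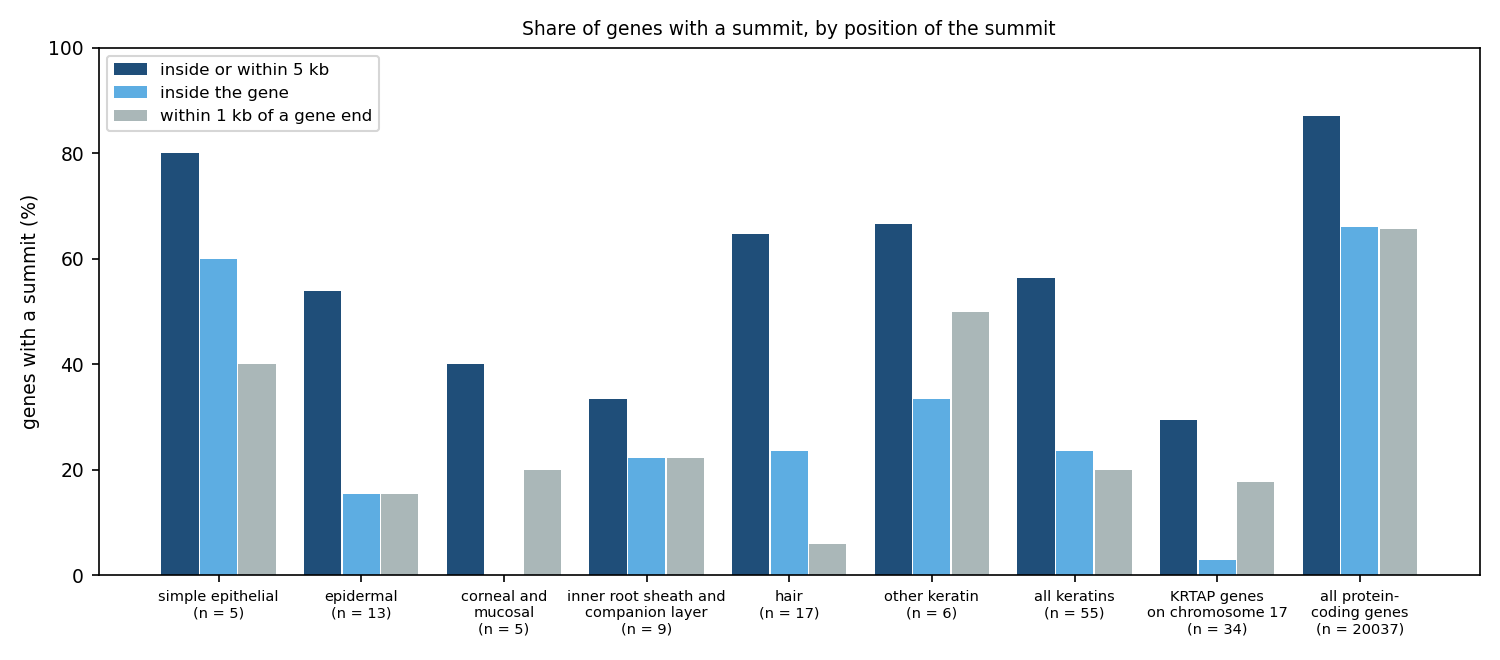
Share of genes (y axis, percent) with a summit inside or within 5 kb, inside the gene, or within 1 kb of a gene end, for each keratin list, all keratins, the KRTAP genes of chromosome 17 and all protein-coding genes, with the number of genes under each name. Keratins as a whole reach 56.4%, 23.6% and 20%, against 87.1%, 66.1% and 65.7% for protein-coding genes.

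By pileup, the simple epithelial keratins had the highest median of the 6 lists. Their highest pileups were 795 at KRT8, 763 at KRT18, 668 at KRT19 and 528 at KRT7, with a median of 715.5 fragments. The epidermal keratins with a summit ran from 38 to 606, with a median of 173, and the hair keratins from 42 to 603, with a median of 81. The median gene length was 9354 bp in the simple list, 5496 bp in the epidermal list and 6316 bp in the hair list. A longer gene is searched over a longer span, and the part of length in these medians was not tested. The lists overlapped, since KRT15, KRT81, KRT86 and KRT34 exceeded KRT7, the lowest simple keratin. The median of the hair keratins moved most with the settings. It was 284.5 when each summit went only to its nearest protein-coding gene and 437.5 at a −log10 q of at least 10, whereas the simple median was 715.5 in both. The epidermal median was 310 at the stricter q and 53 with a window of 1 kb, and the hair median was 515 with that window, each over 3 or 4 genes in the narrow window. Among all protein-coding genes with a summit, the median of the highest pileup was 728. Of the 31 keratins with a summit, 3 reached that value, namely KRT8, KRT18 and KRT80.

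**Figure D3:**
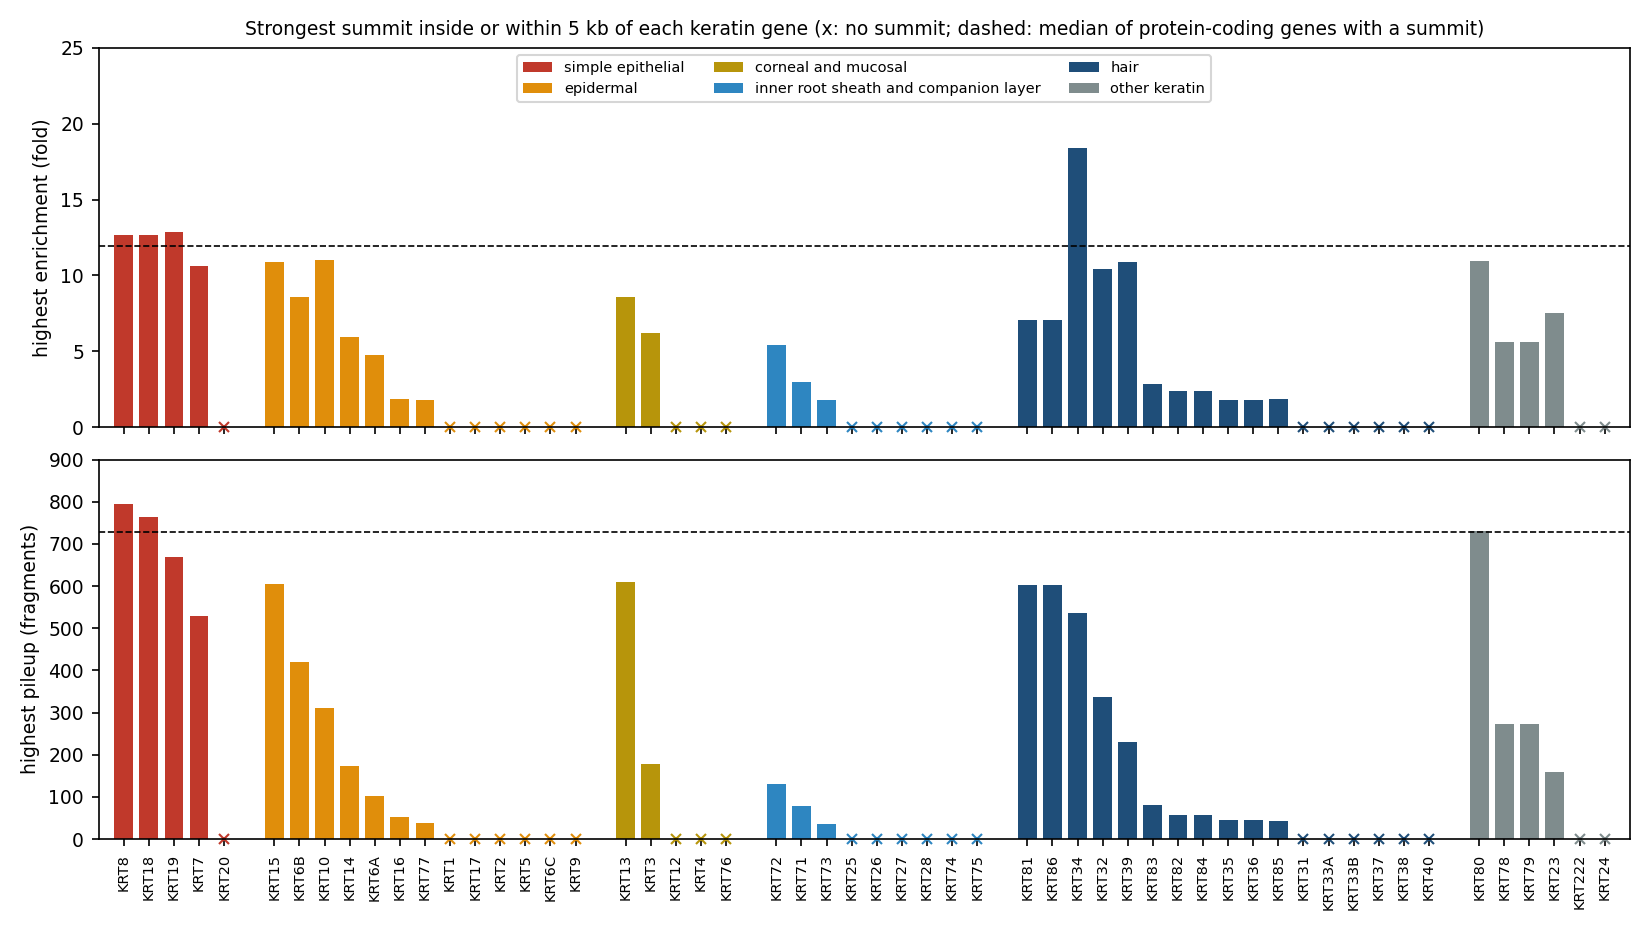
Highest enrichment (top, fold over local background) and highest pileup (bottom, fragments) at summits inside or within 5 kb of each of the 55 keratin genes, in lists; crosses mark genes without a summit and dashed lines the medians of protein-coding genes with one (11.97 fold, 728 fragments). The 4 simple keratins with a summit lie between 528 and 795 fragments, and KRT34 has the highest enrichment, 18.4.

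KRT8 and KRT18 lie next to each other at the end of the chromosome 12 cluster. KRT8, the type II partner (chromosome 12, 52897191 to 52949860), had 10 summits in 8 intervals, more than any other keratin, and 7 of them lay inside the gene. The RefSeq gene of KRT8 is 52670 bp long, the longest of the family, and overlaps the low-coordinate end of KRT18 (52948855 to 52952906). The strongest summit by enrichment, 12.7 fold with a pileup of 763 over a background of 59.2, was at 52949913. It lay inside KRT18, 1058 bp from its low-coordinate end, and 53 bp beyond the high-coordinate end of KRT8, so it counted for both genes. KRT8 is on the minus strand, so this is the upstream end of the annotated gene. A weaker summit of the same interval, at 52949166, had an enrichment of 1.75 at 107 fragments.

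The other KRT8 summits formed 3 groups. Around the listed start site, the summit at 52925291 had a pileup of 795 and an enrichment of 8.58, and that at 52927476 had 549 and 6.05. The 250 bases printed above lie between them, outside both intervals. Further along the gene, the summit at 52903627 had a pileup of 644 and an enrichment of 7.76, followed by weaker ones at 52905125 (247 and 3.07) and 52908367 (161 and 2.04). The remaining 3, at 52896036, 52896397 and 52916746, had pileups of 56, 58 and 44. The local background over the 5 summits from 52903627 to 52927476, without that at 52916746, was 78.6 to 91.8 fragments, well above the genome-wide 20.3.

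KRT19, a type I keratin of simple ductal epithelia (chromosome 17, 41523617 to 41528308), had no summit inside the gene. Its 2 summits flanked it. That at 41530332, 2024 bp beyond the high-coordinate end, had a pileup of 668 and an enrichment of 12.9, which ranked after KRT34 among the keratins. That at 41521848, 1769 bp below the low-coordinate end, had a pileup of 606 and an enrichment of 10.9. The latter also lay within 5 kb of KRT15, a keratin of basal epidermis and hair follicle, for which it was the sole summit. When each summit went to its nearest protein-coding gene, KRT15 had none.

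KRT7, the type II keratin of glandular and ductal epithelia (chromosome 12, 52233243 to 52255853), had a summit at 52244268, inside the gene and 11025 bp from its low-coordinate end. Its pileup was 528 and its enrichment 10.7, and it lay within 1 kb of an end of the antisense gene KRT7-AS. The other KRT7 summit, at 52230596, had a pileup of 100 and an enrichment of 3.65. KRT20, the keratin of intestinal epithelium (chromosome 17, 40875889 to 40885242), had no summit, and the nearest was 18522 bp away. Against all protein-coding genes with a summit, the 4 simple keratins with one lay near the middle or below it by pileup. KRT7 exceeded 39.8% of those genes, KRT19 46.9%, KRT18 51.7% and KRT8 53.2%.

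Among the epidermal keratins, KRT10 had the highest enrichment. KRT10 encodes the type I keratin of the suprabasal epidermis (chromosome 17, 40818117 to 40822614). Its single summit, at 40819023, had an enrichment of 11.0 at 310 fragments. It lay 3591 bp downstream of the listed start, 906 bp from the far end of the gene, and within 1 kb of an end of KRT10-AS1. KRT1, the partner of KRT10, had no summit within 12132 bp.

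Of the basal epidermal pair, 1 partner had a summit. KRT5, the type II keratin of basal epidermis (chromosome 12, 52514575 to 52520394), had its nearest summit 17889 bp away. KRT14, its type I partner (chromosome 17, 41582279 to 41586895), had 1 summit, 2558 bp below its low-coordinate end, with an enrichment of 5.96 at 173 fragments. Of the keratins induced in wounded or hyperproliferative epidermis, KRT6B had a summit with an enrichment of 8.58 at 420 fragments, at 3804 bp from the gene, and KRT6A one with 4.76 and 103, at 3429 bp. KRT16 had 1.86 and 53 at 235 bp from its end, KRT77, a keratin of sweat ducts, had at most 1.83 and 38, and KRT6C and KRT17 had no summit. Both KRT2 and KRT9 were also without one. The KRT6 genes are near-identical copies, as are KRT14, KRT16 and KRT17 with their pseudogenes, and the treatment of reads that fit several copies is not given in the sources used here. Their values, also where no summit was listed, are uncertain for that reason.

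Of the keratins of other stratified epithelia, KRT13, a type I keratin of the oral and oesophageal lining, had 2 summits below its low-coordinate end. The stronger, 733 bp away, had a pileup of 609 and an enrichment of 8.59. The other had 461 and 6.58. KRT4, the partner of KRT13, had no summit. KRT3, the type II keratin of the cornea, had 1 summit with a pileup of 177 and an enrichment of 6.22, and KRT12, its partner, had none, nor did KRT76. Within each of these pairs a single partner had a summit.

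By enrichment, the hair keratins had the widest range of the 6 lists, from 1.77 to 18.4. KRT34, a type I hair keratin (chromosome 17, 41377669 to 41383816), had a single summit inside the gene, at 41380253 in the interval 41380015 to 41380573. Its enrichment of 18.4 was the highest of the family and higher than that of 98.6% of protein-coding genes with a summit. The pileup of 537 exceeded 40.2% of them, and the local background was 28.2 fragments. By pileup KRT34 ranked 9 and by enrichment 1 among the 31 keratins with a summit. KRT32 had a summit inside the gene with an enrichment of 10.4 at 338 fragments. KRT39 had one 1436 bp from the gene with 10.9 and 231.

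The type II hair keratins KRT81 and KRT86 overlap in the annotation, KRT81 lying within the 34519 bp of KRT86. KRT86 had 7 summits, of which 4 also belonged to KRT81. The strongest, at 52281074, had a pileup of 603 and an enrichment of 7.04 over a background of 84.8 fragments, and that inside both genes, at 52288338, had 493 and 7.01. KRT83 shared a summit of 81 fragments and an enrichment of 2.86 with KRT86. The 2 genes KRT82 and KRT84 shared another, of 58 and 2.41, and KRT35 and KRT36 an interval with 3 summits of 41 to 45 fragments and enrichments of at most 1.77. KRT85 had 42 fragments and 1.85. The other 6 hair keratins, KRT31, KRT33A, KRT33B, KRT37, KRT38 and KRT40, had no summit. KRT81, KRT83 and KRT86 are near-identical in sequence, and reads could be divided among them, so their values are uncertain as well. The start-site windows of KRT37 and KRT38 are also alike over much of their length, so the lack of a summit there is uncertain too.

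By pileup, the inner root sheath keratins had the lowest median of the 6 lists, 79 fragments. KRT72 reached an enrichment of 5.42 at 130 fragments, KRT71 2.95 and 79, and KRT73 1.78 and 37, close to the lowest pileup of 35 in the whole list. The type I members KRT25, KRT26, KRT27 and KRT28 and the type II members KRT74 and KRT75 had no summit. Among the other keratins, KRT80, a type II keratin expressed in many epithelia, had 4 summits. That at 52192355, within 1 kb of the high-coordinate end, had a pileup of 730 and an enrichment of 10.8. Another, 4895 bp below the low-coordinate end, had 435 and 10.9. KRT23 had 1 summit 186 bp from its end, with an enrichment of 7.50 at 159 fragments. KRT78 and KRT79 shared 2 summits, the stronger with 5.59 and 272, and KRT24 and KRT222 had none.

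The window set the counts: 16 keratins had a summit inside or within 1 kb, 31 within 5 kb and 38 within 10 kb. The farthest summits that still counted as the strongest site of a gene were those at 4895 bp for KRT80 and 4839 bp for KRT81. Just outside the window, the nearest summit was 5066 bp from KRT84 and 5265 bp from KRT85. It had 114 fragments and an enrichment of 4.76, more than the summit counted for either gene. When overlap of the interval was enough, the median highest pileup of the hair list was 114. Among the keratins without a summit, the nearest was 6440 bp from KRT17, 6498 bp from KRT31 and 6545 bp from KRT222.

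Along the chromosomes, several of the keratins without a summit were neighbours. The stretch without any summit from 40648120 to 40819023 on chromosome 17, 170.9 kb long, held KRT222, KRT24, KRT25, KRT26, KRT27 and KRT28. Another, from 41178541 to 41380253 (201.7 kb), held KRT33A, KRT33B and 12 KRTAP genes, and ended at the KRT34 summit. On chromosome 12 the longest such stretches were 64.0 kb, with KRT76 and KRT3, and 62.2 kb, with KRT2 and KRT1. The stretch between the summits of KRT6B and KRT6A, 53.8 kb long, held the bodies of both of these genes and KRT6C.

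As a whole, the chromosome 12 cluster was denser in intervals than the rest of its chromosome and the chromosome 17 cluster was sparser. The chromosome 12 cluster (784 kb, 27 keratins and no other protein-coding gene) held 45 intervals, 57.4 per Mb against 29.6 per Mb elsewhere on the chromosome, where intervals over 10 kb were not counted. The chromosome 17 cluster (970 kb, 28 keratins among 62 protein-coding genes) held 27 intervals, 27.8 per Mb against 49.4. Centromeres and assembly gaps were not removed from the chromosome lengths. None of the 50 keratin summits lay in an interval over 10 kb.

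**Figure D4:**
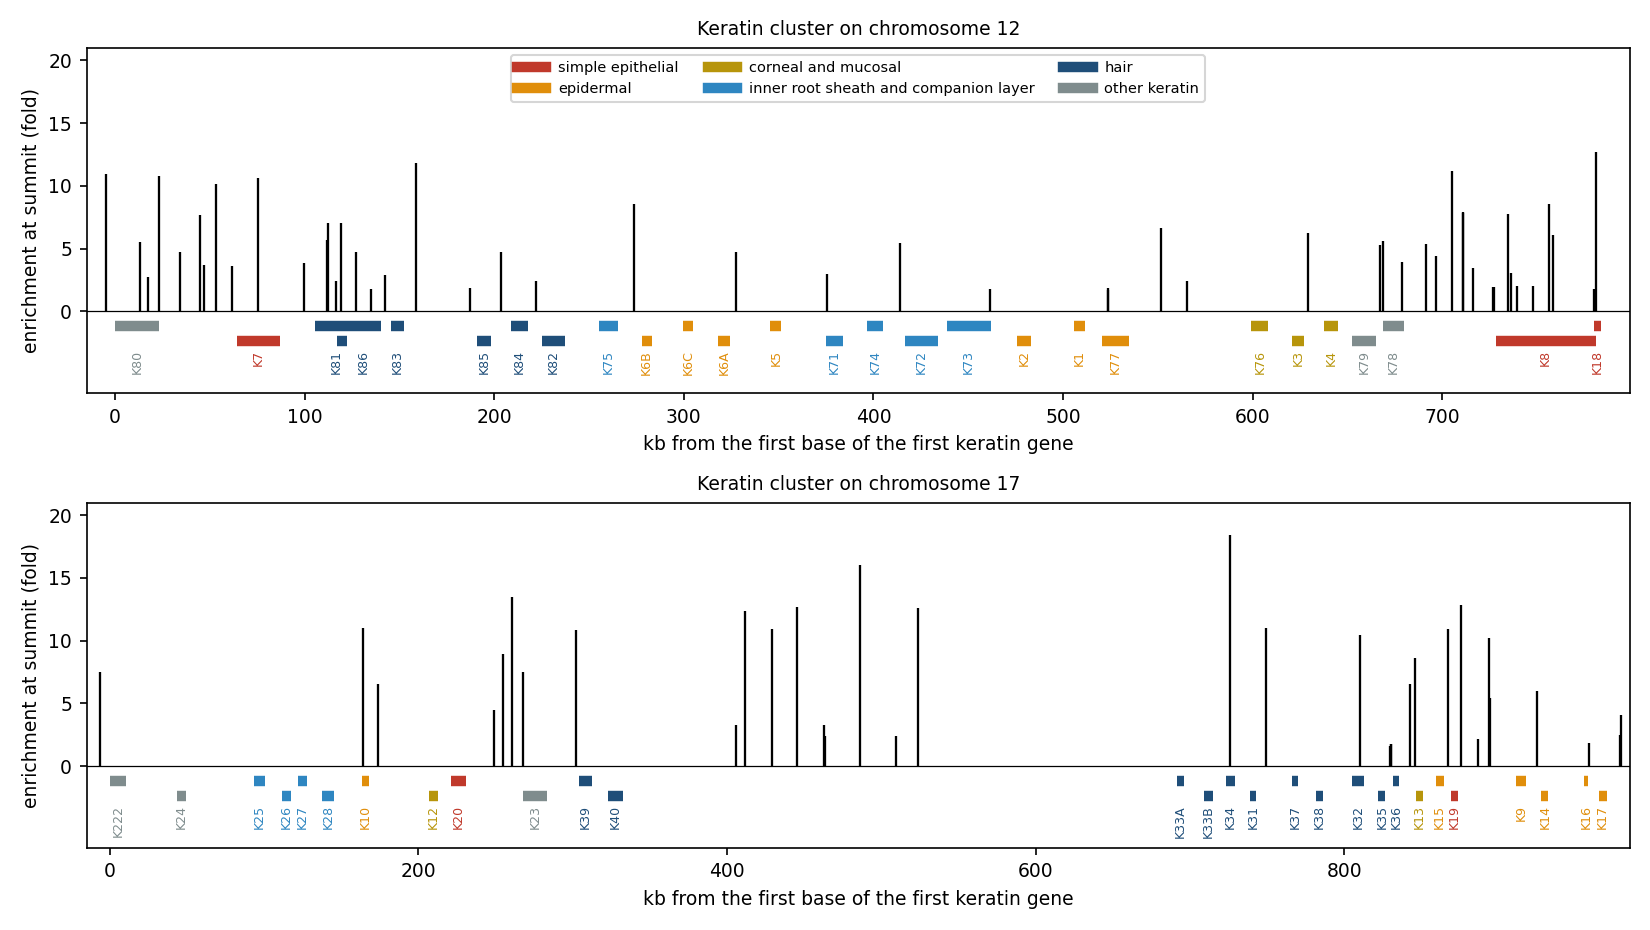
Enrichment (y axis, fold) at every summit along the keratin clusters of chromosome 12 (top) and chromosome 17 (bottom), with distance in kb from the first keratin gene on the x axis; coloured bars below are the genes by list, with K for KRT. The stretch of 170.9 kb over KRT222 to KRT28 on chromosome 17 has no summit, and KRT34 has the highest keratin enrichment, 18.4.

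Compared with the 64046 summits inside or within 5 kb of any protein-coding gene, the 50 keratin summits had a median enrichment of 5.37 against 4.39 and a median pileup of 175 against 132. The local background was above the genome-wide value at 90% of keratin summits and at 75.6% of the 64046. Keratin summits were thus not weak as single sites. The strongest site of each gene was lower at the keratins by median. The median of the highest enrichment was 6.22 over the 31 keratins (range 1.77 to 18.4), against 11.97 over protein-coding genes with a summit. Several keratins share their strongest summit and genes are not replicates, so the difference was not tested. Of the 50 summits, 25 lay inside a keratin gene, 12 within 1 kb of a keratin gene end and 14 within 5 kb of more than 1 keratin. Only 3 lay within 1 kb of an end of a gene outside the family, namely KRT7-AS, KRT10-AS1 and LOC124902935, named after their positions were seen.

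The line was checked against markers of its labelled type. All 10 mesenchymal marker genes had a summit within 5 kb, where 87.1% of all protein-coding genes did, and 8 of them (80%) had one within 1 kb of an end, against 65.7%. With so few genes neither count sets the list apart. The 4 highest enrichments were 15.1 at FN1 (fibronectin), 14.2 at CDH2 (N-cadherin), 11.0 at COL5A1 and 9.96 at SPARC, and the lowest of the list was 3.38, at THY1. The median over the 10 genes was 9.35, below the 11.97 of all protein-coding genes with a summit. The vimentin gene VIM, given here for its role and not by the rule for named genes, reached 2703 fragments and an enrichment of 6.64 over a background of 406.2. That pileup was above the 795 of KRT8, the highest of any keratin. Of 14 epithelial regulators and adhesion genes, 12 (85.7%) had a summit within 5 kb, near the share of all protein-coding genes, and 5 (35.7%) within 1 kb of an end, below it. The median of their highest enrichments, 9.92, was above that of the mesenchymal list. The 4 with the highest enrichment were KLF5 with 16.3, ESRP2 with 15.5, GRHL1 with 14.6 and TP63 with 12.9, and ESRP1 and KLF4 had no summit. By pileup the order was the reverse. The median highest pileup was 921 fragments in the mesenchymal list and 374.5 in the epithelial list, against 728 over all protein-coding genes with a summit. The 2 lists overlapped, with ranges of 88 to 2703 and 59 to 3025 fragments. Median enrichment thus did not separate the lists, while median pileup was higher in the mesenchymal list. The peak list measures open sites and not transcripts, so neither marker list shows which genes were expressed.

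Other intermediate filament genes and the proteins that anchor keratins were read in the same way. Of 12 other cytoplasmic intermediate filament genes, 11 had a summit within 5 kb (91.7%) and 6 (50%) had one within 1 kb of an end, against 87.1% and 65.7% of all protein-coding genes. The neuronal filament gene INA had the highest enrichment, 17.8, at a summit outside the gene, followed by SYNM (synemin) with 14.3, the lens filament gene BFSP1 with 11.9 and the astrocyte gene GFAP with 10.1. NEFM had none. All 13 genes of desmosomes, hemidesmosomes and plakins had a summit within 5 kb, and 10 (76.9%) had one within 1 kb of an end, with the same shares for comparison. DST had an enrichment of 18.97, PPL (periplakin) of 14.0, DSP (desmoplakin) of 13.6 and PLEC (plectin, a cross-linker of filaments) of 12.6. These genes are longer than keratins, with a median of 49484 bp.

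Genes of the cornified envelope, the protein shell of the outermost keratinocytes, had a summit within 5 kb in 7 of 7 cases and within 1 kb of an end in 3 (42.9%), against 87.1% and 65.7% of all protein-coding genes. SPRR1B had an enrichment of 13.9, IVL (involucrin) of 12.7, FLG (filaggrin) of 5.21 and CNFN of 3.57, and the median over the list was 3.57. The KRTAP genes on chromosome 17, whose products embed the hair keratins, had a summit within 5 kb in 10 of 34 cases (29.4%), below the 64.7% of hair keratins and the 56.4% of all keratins. They are shorter, with a median length of 938.5 bp against 6433 bp for keratins, and the part of length was not tested. The KRTAP genes with a summit had a median highest enrichment of 11.6 and pileup of 262, against 6.22 and 231 for keratins.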

How the data were processed

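The members and the gene lists were chosen with earlier results of these data known. Per the submitters' processing notes, fastp 0.20.0, Bowtie2 2.4.3, deepTools 3.5.0, SAMtools and MACS2 2.2.7.1 were used with the build hg38; their settings, read filters and pooling are not given in the sources used here. The authors deposited 1 peak list without a header. Its enrichment is a ratio (fold over local background) and its p-value and q-value columns are on the −log10 scale, with a lowest −log10 q of 1.30, all as the authors deposited them. The deposited score followed the −log10 q and was not used further, and the deposited summit offset gave the positions, written 1-based.

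Pileup and background were solved from enrichment, taken as (pileup + 1)/(background + 1), and the Poisson p. Pileups were whole within 0.05 in 99.96% of lines and at all 50 keratin summits. The solving step was also tested on data simulated with these same formulas. That test cannot show that the deposited columns follow them, and simulated cases whose log p was not finite were left out. Python 3.11.15, numpy 2.4.6, pandas 2.3.3 and scipy 1.17.1 were used. Genes and starts came from RefSeq tables (GRCh38.p14). No test between collagen concentrations could be made, so the results are descriptions. Alternatives were windows of 0, 1 and 10 kb, nearest gene, a stricter q, interval overlap, 1 summit per interval and other lists. Named were all simple keratins, the 20 others with the highest pileup (ties kept) and, of other lists, the 4 highest in enrichment and those without a summit; KRT16, KRT73, KRT77, KRT85, KRT35, KRT36 and keratins without a summit were named after their values were seen.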

Additional observations from a re-analysis of the deposited data

Results flagged for a closer look

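Signal was also found at copies of the simple keratins, which the comparisons of keratin lists did not use. Of the annotated pseudogenes of KRT8 and KRT18, 49 had a summit inside or within 5 kb. For KRT8 these were 23 of 52 pseudogenes (44.2%), with a summit inside in 12 (23.1%). For KRT18 they were 26 of 68 (38.2%), with a summit inside in 9 (13.2%). Of the 32 pseudogenes of other keratins 18 (56.3%) had a summit within 5 kb and 6 (18.8%) had one inside, so the share within 5 kb was not highest for the KRT8 and KRT18 copies. Among 16899 pseudogenes outside the family 33.0% had a summit within 5 kb and 8.19% had one inside. The share with a summit inside was highest for the KRT8 copies. The highest values near a copy were an enrichment of 19.4 and a pileup of 2466 within 5 kb of KRT18P59 on chromosome 11, with no summit inside it. How reads that fit both a gene and its copies were placed is not given in the sources used here, and their part in the values at KRT8 and KRT18 was not tested.

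The alternate sequences of chromosomes 12 and 17 carried 465 summits on 27 sequences, with enrichments up to 19.3. Gene positions on these sequences were not used here, so any keratin gene among them was not analysed here.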

How the results depend on the processing

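The number of keratins with a summit, 31 with the window of 5 kb, was 13 with summits inside the gene and 16 within 1 kb. For the epidermal list the 7 became 2 and 3, and for the hair list the 11 became 4 and 4. At a −log10 q of at least 10 the hair count was 6. The median highest pileup of the hair list, 81, was 515 with either narrower window, 390 with 10 kb, 284.5 with each summit given to its nearest protein-coding gene and 437.5 at the stricter q. That of the epidermal list, 173, was 53 within 1 kb and 310 at the stricter q. Fewer genes or summits enter under all of these settings but the window of 10 kb. The 50 other values stayed within 1.5 times the main ones; the alternatives for the median pileups were added after the data were seen. No paired analysis was possible because the deposited list has no value per library, which also left no replicate to leave out. Shallow sites set the lower limit: no summit had a pileup below 35 fragments, so a gene without a summit may still have weaker open sites.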

Other observations

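Some of the strong sites of the keratin clusters lay farther than 5 kb from any keratin. In the chromosome 17 cluster there were 17 such summits. The highest enrichment among them was 16.0, with a pileup of 763, at a summit 398 bp from KRTAP4-6, a gene of hair keratin-associated proteins. Summits next to KRTAP4-2, KRTAP4-16 and KRTAP2-4 had enrichments of 12.6, 12.7 and 12.4, with pileups of 343, 270 and 318. The highest pileup was 1269, at 41548088, 1518 bp from the noncoding gene LINC00974 and between KRT19 and KRT9. A summit inside the noncoding gene LOC105371777, between KRT20 and KRT23, had an enrichment of 13.5 at 286 fragments.

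In the chromosome 12 cluster 15 summits lay beyond 5 kb of a keratin. The strongest by pileup, 921 fragments with an enrichment of 11.2, was at 52874403, between KRT78 and KRT8, and so exceeded every keratin summit. The highest enrichment, 11.8 with a pileup of 460, was at 52327700, 6302 bp from KRT83. The noncoding gene LINC00592, between KRT80 and KRT7, held 3 summits with enrichments of 3.67 to 10.2. These genes and sites were named after their values were seen.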
